A study of Caenorhabditis elegans with 15 samples.

Results

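The lettered nsp families *nspa*, *nspb*, *nspc*, *nspe* and *nspg* were followed in young adults of *Caenorhabditis elegans* with and without the F-box gene *fbxa-215*. Members were chosen by name: every gene whose symbol in either of the deposited strain comparisons starts with *nspa-*, *nspb-*, *nspc-*, *nspe-* or *nspg-*. This gave 59 of the 21882 genes in the count tables, namely 8 *nspa*, 12 *nspb*, 17 *nspc*, 8 *nspe* and 14 *nspg* genes. The *nspg* names stand only in the 20 °C comparison, because the 25 °C comparison lists those 14 genes under clone names.

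The nsp genes take their name, nematode-specific peptide family, from short predicted proteins that were grouped by sequence and for which no counterparts outside nematodes were known when they were named. No molecular role is assigned to most of them. The families left out by the rule include *nspd* and *nspf*, which are known from the male germ line and sperm of *Caenorhabditis*. F-box proteins, among them FBXA-215, carry the domain that commonly links substrates to SCF ubiquitin ligases.

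Polyadenylated RNA was sequenced from whole animals of the wild-type strain N2 and of *fbxa-215(syb4404)* mutants, which are 1 strain with 1 allele. Animals of both strains were synchronised as hatched larvae and fed HB101 bacteria. The 20 °C groups hold 4 N2 and 4 mutant libraries collected 48 h after plating, and the 25 °C groups hold 4 N2 and 3 mutant libraries collected at about 36 h. Temperature and hours after plating therefore cannot be told apart. As the labels do not say whether the libraries of a group are separate cultures, the tests measure the spread between these libraries, which may be technical.

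Library totals ranged from 10842744 to 28391866 counts, and mutant replicate 4 at 20 °C was by far the deepest. *fbxa-215* had 1364 to 2297 counts in the N2 libraries and 0 to 2 in the mutants. The summed level of 13 oocyte and eggshell markers, as CPM (counts scaled to the normalized size of each library), was 7591 to 9281 in N2 and 5915 to 6416 in mutants at 20 °C. At 25 °C it was 5455 to 6715 in N2 and 5202 to 5534 in mutants. The lists of sperm, oocyte, germline, intestine, muscle and nerve markers were detected in every library, and 5 of the 61 sperm genes were at 0 throughout. Because whole animals were sequenced, fewer cells that express a gene and less RNA per cell cannot be told apart.

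In the mutants, 14 of 34 tested members were higher than in N2 at 25 °C, where 1.31% of all tested genes were, and 4 of 34 at 20 °C, where 1.23% were. None was called lower by edgeR at either temperature. The rises at 25 °C fell on 5 *nspb* genes, 8 *nspc* genes and *nspg-8*. *nspg-8* was 4.22-fold above N2 in mutants at 25 °C, and at 20 °C the strains overlapped. The abundant *nspg* genes differed by less than 2-fold between the strains, while 9 *nspg* genes were higher at 25 than at 20 °C in N2 by the FDR threshold alone, where 23% of all genes were.

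The subfamilies are laid out differently in the WBcel235 genome. All 17 *nspc* genes lie on chromosome X in 3 clusters. The first, from 8534672 to 8542283, holds *nspc-1* to *nspc-5* and *nspc-7*. The second, from 12342946 to 12361159, holds *nspc-9*, *nspc-10* and *nspc-12* to *nspc-15*. The third, from 14523575 to 14530207, holds *nspc-16* to *nspc-20*. Each *nspc* gene has 2 exons and encodes 101 to 103 codons, and all genes of the third cluster have 103.

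The 8 *nspe* genes share 1 cluster of 16.9 kb on chromosome II, and 7 of the 8 *nspa* genes lie on chromosome V from 14750353 to 14891186. The *nspb* genes fall on chromosomes II, III and IV, with *nspb-1* to *nspb-5* together on IV from 6590734 to 6599610 and *nspb-7* to *nspb-10* together on II from 14578313 to 14588262. The *nspg* genes are scattered over chromosomes II, III, IV, V and X and are the longest, with 219 to 272 codons against 34 in every *nspa* gene, 79 to 86 in *nspb* and 71 to 75 in *nspe*. Where members are near-identical, the quantification may have split their reads, so each subfamily was also tested as 1 summed row.

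The families also differ in abundance. Per kilobase of exon, the level of the most abundant *nspg* gene, *nspg-7.1*, was 364 CPM as a mean of the 15 libraries. The highest values of the other families were 71.4 for *nspc-15*, 19.7 for *nspb-1*, 16.6 for *nspa-4* and 2.56 for *nspe-1*. These divide by the full exon length, 105 bp in *nspa-4* and 781 bp in *nspg-7.1*, without a correction for fragment length. The rank of genes as short as *nspa-4* is therefore uncertain. The *nspg* genes made up 78.6% to 91.5% of all member CPM in a library and the *nspc* genes 7.93% to 19.8%.

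Not every member was measurable. Counts were 0 in all 15 libraries for 8 members, which were *nspa-1*, *nspa-2*, *nspa-6*, *nspa-9*, *nspa-10*, *nspb-5*, *nspe-3* and *nspe-8*. A count of 0 allows a level of up to 0.103 to 0.278 CPM, the value of 3 counts in the deepest and the shallowest library, for counting error only. A further 13 members had some counts, at most 19 in a library, but passed the filter on low counts in no comparison. The remaining 38 were tested in at least 1 comparison, and these passed partly through the group in which they are high.

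The summed levels show which families separate the strains. The *nspb* sum was 3.88, 5.99, 8.88 and 11.7 CPM in N2 at 25 °C and 26.6, 28.8 and 40.5 CPM in mutants, so the groups stood apart. Its log2 fold change was 2.07 ± 0.35 (SE) and was called (edgeR quasi-likelihood, FDR 0.0165), where 1.82% of all rows of that fit were. Without mutant replicate 2 the FDR was 0.0539, and without mutant replicate 3 it was 0.0713. At 20 °C the *nspb* sum spread from 2.74 to 11.8 CPM in N2 and from 9.91 to 36.2 CPM in mutants, and its log2 fold change of 1.56 ± 0.57 did not pass (FDR 0.114).

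**Figure D1:**
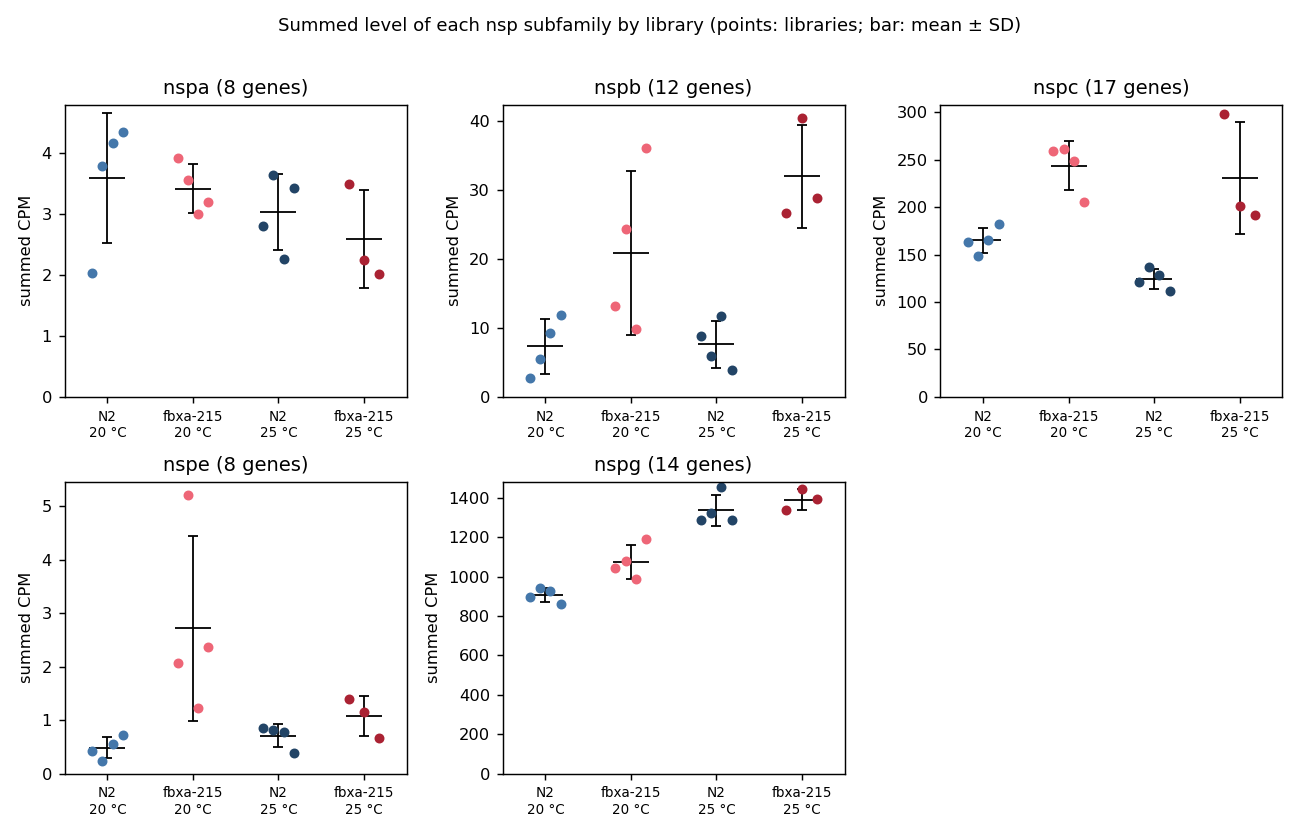
Summed level of each subfamily in CPM (vertical axes from 0) in N2 and *fbxa-215* libraries at 20 and 25 °C; points are libraries and bars are the mean ± SD. At 25 °C the 3 mutant points of *nspb* (26.6 to 40.5 CPM) and *nspc* (192 to 298.7 CPM) lie above all 4 N2 points, while *nspg* differs mainly between the temperatures.

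The *nspc* sum was 149 to 182 CPM in N2 and 206 to 261 CPM in mutants at 20 °C, without overlap, a log2 fold change of 0.58 ± 0.09 (FDR 0.00416). At 25 °C it was 112 to 136.5 CPM in N2 and 192 to 298.7 CPM in mutants, a log2 fold change of 0.89 ± 0.16 (FDR 0.0137). Both passed the FDR threshold with a fold under 2. The *nspg* sum was 861 to 943 CPM in N2 and 989.7 to 1193 CPM in mutants at 20 °C, 0.26 ± 0.07 on the log2 scale (FDR 0.0309). Leaving out any N2 library, or mutant replicate 1 or 2, raised that FDR to between 0.055 and 0.0768. At 25 °C the *nspg* sums overlapped, at 1287 to 1453 CPM in N2 and 1337 to 1444 CPM in mutants. The *nspa* sum stayed between 2.01 and 4.34 CPM in all 15 libraries, with log2 fold changes of -0.05 ± 0.24 at 20 °C and -0.23 ± 0.27 at 25 °C.

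The first question is which members differ between the strains at 25 °C. A gene was called at an FDR under 0.05 over all tested genes and a fold change above 2. Of the 34 members tested, 14 were called higher and 0 lower, where 1.31% of all 13510 tested genes were called higher and 0.614% lower. Among those not called, *nspg-10* and *nspg-13* had the edgeR p-values under 0.05 with a lower level in mutants (log2 fold changes -0.15 and -0.21, FDR 0.165 and 0.145). The median log2 fold change of the tested members was 0.67, beside 0.004 for all tested genes. Libraries did not overlap in 17 members that were higher in mutants, against 13.5% of all genes, and 15 were higher by the FDR threshold alone, against 6.97%.

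Within *nspc*, the difference at 25 °C varied with the cluster. The tested genes of the first cluster had a median log2 fold change of 0.20, with 0 of 6 called by edgeR. In this cluster *nspc-1* alone passed the FDR threshold (0.70, FDR 0.00718) and *nspc-1* and *nspc-3* did not overlap between the strains. The second cluster had a median of 1.20, with 4 of 5 called, and the third a median of 2.18, with 4 of 5 called. In the third cluster *nspc-18* and *nspc-19* reached at most 0.726 and 0.777 CPM in N2. They passed the filter on low counts only through the mutant libraries, and *nspc-12* of the second cluster was not tested. The called counts and medians of these clusters therefore depend partly on the filter. The summed CPM of the third cluster ran from 17.1 to 20.4 in N2 and from 34.3 to 72.2 in mutants. The clusters were compared after their values were seen, so these medians and sums carry no test.

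*nspc-15*, the most abundant *nspc* gene, was at 11.3, 13.2, 13.7 and 16.3 CPM in N2 at 25 °C and at 38.1, 41.9 and 48.4 CPM in mutants. The lowest mutant library stood above the highest N2 library by more than the whole N2 range. The log2 fold change was 1.65 ± 0.13 (edgeR FDR 5.9e-06). *nspc-15* shares 333 bp of exon with F19H6.6 on the same strand, so its reads could be divided between both, and F19H6.6 itself averaged 0.115 CPM.

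*nspc-16* was at 0.957, 1.24, 1.45 and 1.70 CPM in N2 and at 6.33, 7.63 and 8.82 CPM in mutants at 25 °C, the strongest rise within *nspc* (log2 fold change 2.47 ± 0.23, FDR 2.95e-05). Its neighbour *nspc-17* was at 0.851, 1.22, 1.24 and 1.91 CPM in N2 and at 4.09, 5.11 and 8.21 CPM in mutants (2.18 ± 0.30, FDR 0.000856). *nspc-19* was at 0.261, 0.363, 0.669 and 0.777 CPM in N2 and at 1.39, 3.19 and 3.41 CPM in mutants (2.29 ± 0.42, FDR 0.00471). All 3 stayed called with each library left out. *nspc-18* was at 0.311, 0.348, 0.365 and 0.726 CPM in N2 and at 1.01, 1.16 and 2.01 CPM in mutants. Its call (1.67 ± 0.44, FDR 0.0262) was kept only without N2 replicate 2, and the FDR was 0.0556 to 0.0701 without any other library. DESeq2 gave *nspc-18* no adjusted p-value at 25 °C.

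In the second cluster, *nspc-10* was at 6.45, 7.72, 8.53 and 8.90 CPM in N2 and at 13.4, 17.8 and 23.2 CPM in mutants at 25 °C. *nspc-14* was at 9.47, 9.48, 9.48 and 14.2 CPM in N2 and at 17.7, 22.2 and 33.5 CPM in mutants. *nspc-13* was at 3.22, 3.45, 3.65 and 4.87 CPM in N2 and at 6.48, 7.21 and 11.1 CPM in mutants. In all 3 genes the groups stood apart and mutant replicate 1 was the highest library. Their log2 fold changes were 1.20 ± 0.18, 1.21 ± 0.23 and 1.12 ± 0.22 (FDR 0.00151, 0.0109 and 0.00631). Without mutant replicate 1 they fell under the fold threshold, to 0.99, 0.91 and 0.86, with FDR values of 0.000429, 0.00127 and 0.00668.

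**Figure D2:**
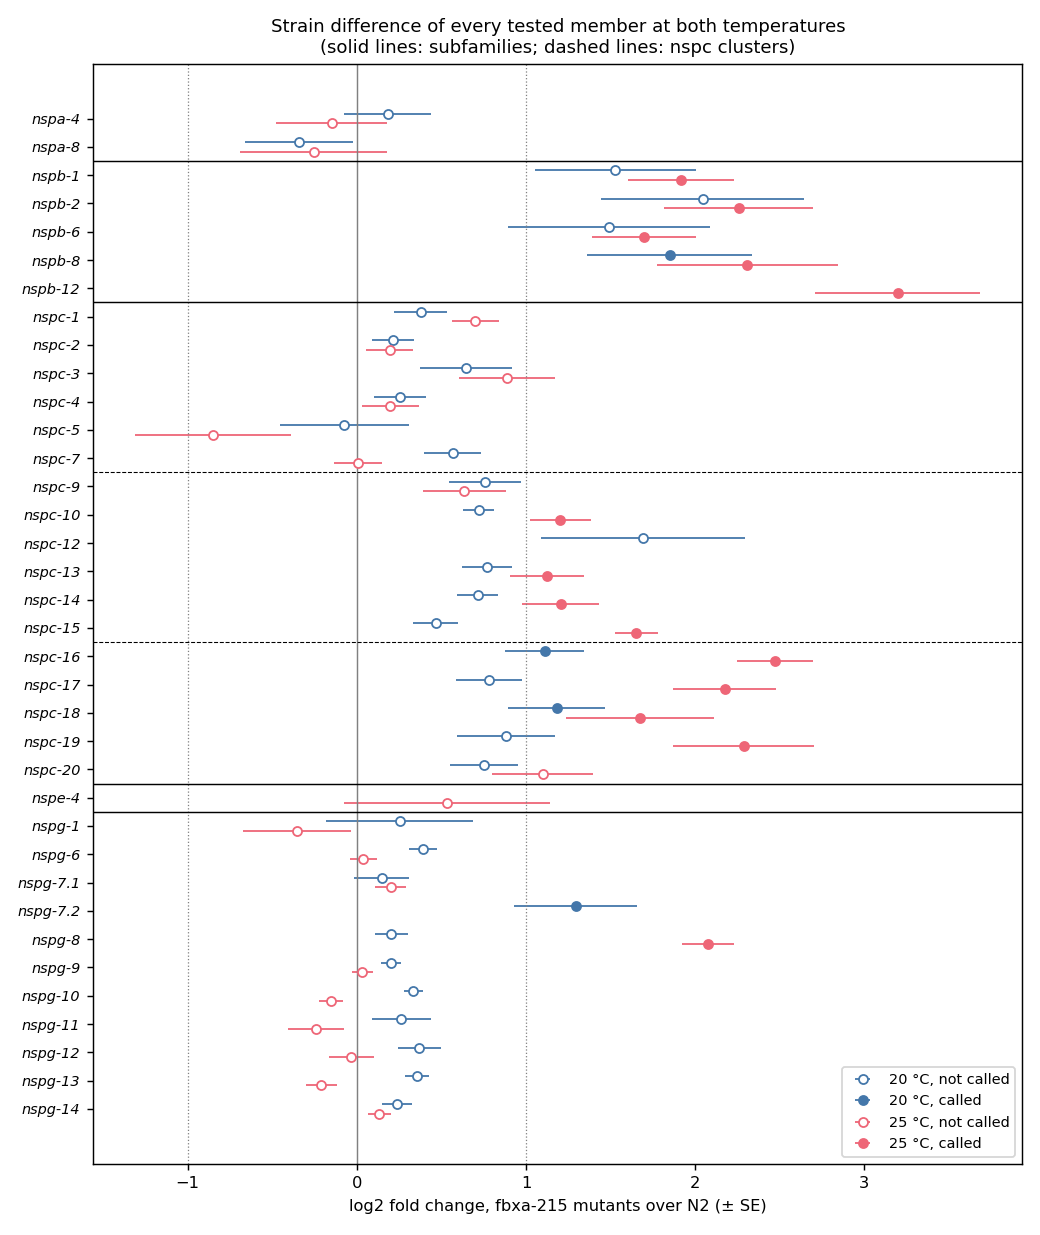
Log2 fold change of *fbxa-215* mutants over N2 (horizontal axis, ± SE) for every member tested at 20 °C (blue) or 25 °C (red); filled points were called, solid lines part the subfamilies and dashed lines the 3 *nspc* clusters. The 5 *nspb* points at 25 °C lie between 1.70 and 3.20, and within *nspc* the 25 °C points move right from the first cluster to the third.

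Of the 12 *nspb* genes, 5 passed the filter on low counts at 25 °C. All 5 were called higher in mutants, and in each of them the groups stood apart. *nspb-2*, *nspb-8* and *nspb-12* passed the filter only with the help of the mutant libraries, where they are high. The count of 5 of 5 is therefore partly set by the filter. *nspb-1* was at 2.33, 2.63, 3.65 and 5.13 CPM in N2 and at 8.47, 12.1 and 18.3 CPM in mutants (log2 fold change 1.92 ± 0.32, FDR 0.00746). *nspb-12* was at 0.0777, 0.122, 0.261 and 0.363 CPM in N2, which is 1 to 4 counts a library, and at 1.17, 2.10 and 2.31 CPM in mutants. Its log2 fold change of 3.20 ± 0.49 (FDR 0.00155) was the largest of the members tested between the strains. The call of *nspb-12* was lost in a fit over the 15 libraries (FDR 0.068). DESeq2 gave *nspb-12* no adjusted p-value, and with at least 10 counts required in every library it was not tested.

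*nspb-8* was at 0, 0.363, 0.669 and 0.870 CPM in N2 and at 1.59, 2.71 and 2.93 CPM in mutants at 25 °C (2.31 ± 0.54, FDR 0.0187). Without N2 replicate 2 its FDR was 0.0595, and without mutant replicate 2 it was 0.0901. *nspb-2* and *nspb-6* ranged from 0.621 to 2.44 CPM in N2 and from 3.24 to 9.95 CPM in mutants, with log2 fold changes of 2.26 and 1.70. The call of *nspb-2* was lost without mutant replicate 2 or 3 (FDR 0.0558 and 0.0686). *nspb-1* and *nspb-2* lie within the span of *irld-7* without sharing exon sequence, and *irld-7* had a log2 fold change of 0.53 at 25 °C (FDR 0.307) and was itself called higher in mutants at 20 °C (1.05, FDR 0.0404).

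The last larval moult list holds 11 genes of the cuticle and the moulting cycle. Its summed CPM was 51.9 to 99.3 in N2 and 82.7 to 113 in mutants at 25 °C, and 48.7 to 104.7 in N2 and 58.2 to 86.9 in mutants at 20 °C. None of the 11 was called or passed the FDR threshold in edgeR between the strains. In each of the 4 groups the library with the highest *nspb* sum was also the highest in this list, though the lowest library was not the same in every group. The list's part in the *nspb* result was not tested.

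*nspg-8* (240 codons in 5 exons, plus strand of chromosome III from 1182056 to 1184942, no annotated overlap) changed most clearly. It was at 22.01, 22.1, 25.7 and 27.0 CPM in N2 and at 25.6, 27.4, 27.7 and 29.9 CPM in mutants at 20 °C. At 25 °C it was at 6.81, 7.17, 7.46 and 8.87 CPM in N2 and at 27.7, 28.0 and 40.2 CPM in mutants. The N2 libraries at 25 °C stood alone, and the other 3 groups lay within 22.01 to 40.2 CPM. The strain difference was 2.08 ± 0.15 on the log2 scale at 25 °C (FDR 4.29e-06) and 0.20 ± 0.10 at 20 °C (FDR 0.17). No library left out and no other setting tried removed the call at 25 °C.

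Of the other 9 *nspg* genes tested at 25 °C, 0 were called by edgeR. *nspg-10* was at 204 to 241 CPM in N2 and at 189 to 199.7 CPM in mutants, without overlap, and its log2 fold change was -0.15 ± 0.07 (FDR 0.165). *nspg-7.1*, at 312 to 343 CPM in N2 and 306 to 412 CPM in mutants, overlapped.

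**Figure D3:**
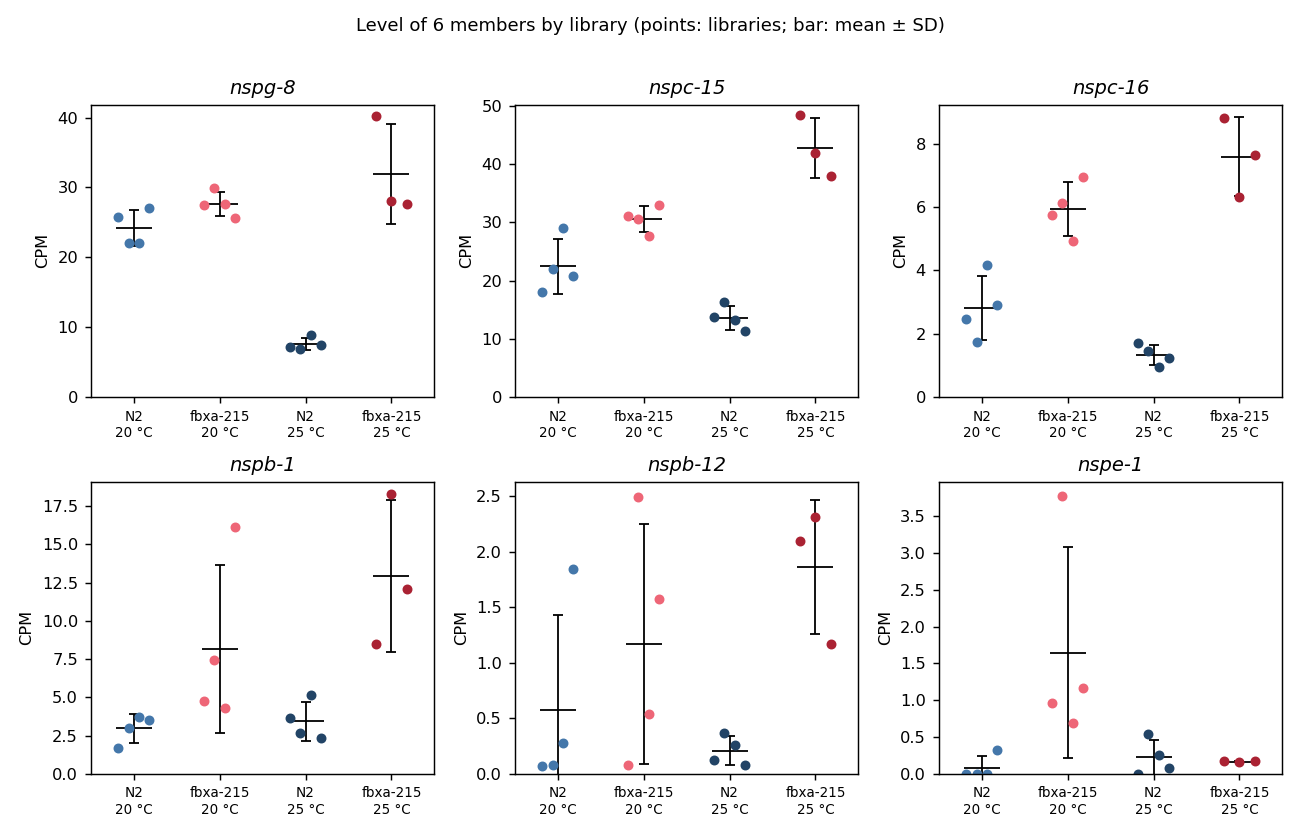
Level of 6 members in CPM (vertical axes from 0) by strain and temperature; points are libraries and bars are the mean ± SD. In *nspg-8* the 4 N2 libraries at 25 °C (6.81 to 8.87 CPM) lie below all other libraries, while in *nspe-1* the mutants at 20 °C (0.691 to 3.78 CPM) lie above all others.

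The same question was asked at 20 °C. Of the 34 members tested, 4 were called higher and 0 lower, where 1.23% of all 13127 tested genes were called higher and 0.251% lower. Among these 4, *nspb-8* and *nspg-7.2* passed the filter on low counts only with the help of the mutant libraries. The count of 4 is therefore partly set by the filter. By the FDR threshold alone 16 members were higher, where 7.71% of all tested genes were. They were 10 *nspc*, 5 *nspg* and 1 *nspb* gene. Libraries did not overlap in 14 members that were higher in mutants, against 9.89% of all genes. The median log2 fold change of the tested members was 0.52, beside 0.015 for all tested genes. No member was lower at an unadjusted p under 0.05, and none was called lower by DESeq2. Of the 14 called at 25 °C, 3 were called at both temperatures (*nspb-8*, *nspc-16* and *nspc-18*).

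*nspc-16* was at 1.73, 2.45, 2.89 and 4.16 CPM in N2 and at 4.92, 5.74, 6.13 and 6.95 CPM in mutants at 20 °C, a log2 fold change of 1.11 ± 0.24 (FDR 0.0145). *nspc-18* was at 0.906, 1.05, 1.11 and 1.59 CPM in N2 and at 1.84, 2.15, 2.74 and 3.78 CPM in mutants (1.18 ± 0.29, FDR 0.0232). Neither gene overlapped between the strains. Without N2 replicate 2 the fold of *nspc-16* fell under the threshold (0.94), and *nspc-18* missed the FDR without N2 replicate 2 or 3 or mutant replicate 2 (0.0714, 0.0579 and 0.0725).

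*nspb-8* was at 0.217, 0.412, 0.555 and 1.05 CPM in N2 and at 0.922, 1.28, 2.74 and 2.80 CPM in mutants at 20 °C, with 1 mutant library below the highest N2 library. The log2 fold change was 1.85 ± 0.49 (FDR 0.0308). *nspg-7.2* was at 0.563, 0.741, 0.866 and 1.57 CPM in N2 and at 1.36, 1.69, 2.79 and 2.98 CPM in mutants (1.29 ± 0.36, FDR 0.0377). Both genes were tested only with the help of the mutant libraries, where they are high. *nspb-8* was called only without N2 replicate 4 or mutant replicate 3, and otherwise its FDR was 0.0536 to 0.0923. *nspg-7.2* lost its call without N2 replicate 1, 2 or 4 or mutant replicate 1 or 4, at an FDR of 0.0683 to 0.103.

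The count at 20 °C rested on single libraries. It was 0 without N2 replicate 2, 2 without N2 replicate 1 or 3 or mutant replicate 1, 2 or 4, and 7 without mutant replicate 3. At 25 °C it stayed at 12 to 13 with any library left out.

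The *nspc* clusters kept their order at 20 °C, with median log2 fold changes of 0.32, 0.74 and 0.88. In the second cluster *nspc-10* was at 12.9, 13.01, 13.5 and 14.1 CPM in N2 and at 21.1, 21.6, 21.8 and 22.7 CPM in mutants, a narrow spread in both strains (0.72, FDR 0.00151). *nspc-13* and *nspc-14* also stood apart, with log2 fold changes of 0.77 and 0.72 (FDR 0.00957 and 0.00595). *nspc-15* overlapped at 20 °C, at 18.0, 20.7, 21.98 and 29.0 CPM in N2 and 27.7, 30.6, 31.2 and 33.0 CPM in mutants (0.47 ± 0.13, FDR 0.0397). *nspc-20*, the most abundant gene of the third cluster, was at 15.3 to 26.0 CPM in N2 and 24.0 to 39.0 CPM in mutants (0.75, FDR 0.0387).

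Among abundant *nspg* genes at 20 °C, *nspg-10* was at 145, 147, 151 and 159 CPM in N2 and at 178.6, 187, 191 and 195 CPM in mutants, so the groups stood apart. The log2 fold change was 0.34 ± 0.06 (FDR 0.00662). *nspg-13* was at 99.9, 102, 111 and 118 CPM in N2 and at 126, 135, 137 and 147 CPM in mutants (0.36 ± 0.07, FDR 0.0122). *nspg-7.1* was at 184, 197, 250.4 and 254 CPM in N2 and from 205 to 323 CPM in mutants, and these overlapped (FDR 0.574). *nspg-10* shares 17 bp of exon with *col-110* on the opposite strand, and the libraries were not strand-specific.

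In the *nspe* family, *nspe-4* had 2 to 16 counts in each of the 15 libraries, and more than 3 in 11 of them. Its means were 0.349 and 0.427 CPM in N2 and mutants at 20 °C and 0.423 and 0.656 CPM at 25 °C. By contrast, *nspe-1* was highest in mutants at 20 °C. *nspe-1* was at 0, 0, 0 and 0.322 CPM in N2 and at 0.691, 0.957, 1.16 and 3.78 CPM in mutants at 20 °C, that is 0 to 4 counts against 9 to 50. The groups did not overlap (exact two-sided permutation test of log2(CPM + 1), p = 0.0286, the smallest that 4 against 4 libraries allow and not adjusted over the members). Its counts were too low for the test across genes at 20 °C. At 25 °C it was at 0, 0.0777, 0.261 and 0.545 CPM in N2 and at 0.154, 0.168 and 0.175 CPM in mutants, 2 counts in each mutant library.

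The *nspe* sum at 20 °C was 0.247, 0.433, 0.555 and 0.723 CPM in N2 and 1.23, 2.07, 2.36 and 5.22 CPM in mutants, without overlap. Its log2 fold change of 2.47 ± 0.49 was called (FDR 0.0115), where 1.47% of all rows of that fit were, and stayed called with each library left out. The sum had 3 to 9 counts in N2 and 16 to 69 in mutants. It therefore passed the filter on low counts only through the mutant libraries. Most of the difference was in *nspe-1*, while *nspe-4* overlapped between the strains, so the sum does not speak for the whole family. At 25 °C the sums of 0.388 to 0.851 CPM in N2 and 0.671 to 1.40 CPM in mutants overlapped (0.59 ± 0.41, FDR 0.357). The test of the difference between the temperatures did not pass for the *nspe* sum (-1.86 ± 0.68, FDR 0.113).

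The *nspa* genes with counts were *nspa-4*, *nspa-5* and *nspa-8*. *nspa-4* was at 1.08, 1.65, 1.85 and 2.01 CPM in N2 and at 1.51, 1.69, 1.99 and 2.27 CPM in mutants at 20 °C. At 25 °C it was at 1.57, 1.86, 1.89 and 1.91 CPM in N2 and at 0.922, 1.54 and 2.45 CPM in mutants. The strains overlapped at both temperatures. The current annotation gives the identifier of *nspa-4* the symbol *nspa-5*, so the names of this family depend on the release.

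Whether the strain difference itself differs between 20 and 25 °C was tested in 1 fit over the 15 libraries. Of the 38 members tested, 3 passed the FDR threshold in the direction of a larger difference at 25 °C and 2 in the other direction, where 0.743% and 0.721% of all 14000 genes did. *nspg-8* had the largest of these interaction terms (1.89 ± 0.18 on the log2 scale, FDR 5.83e-05), followed by *nspc-16* (1.38 ± 0.34, FDR 0.0494) and *nspc-15* (1.20 ± 0.19, FDR 0.00922). *nspg-8* and *nspc-15* passed with any library left out. *nspc-16* passed only without N2 replicate 1, 2 or 4 or mutant replicate 4 at 20 °C, or mutant replicate 1 at 25 °C, and its FDR was otherwise 0.0536 to 0.127.

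In the other direction, *nspg-10* (-0.48 ± 0.09, FDR 0.0193) and *nspg-13* (-0.55 ± 0.12, FDR 0.0363) were above N2 in mutants at 20 °C and not at 25 °C. *nspg-10* missed the threshold without N2 replicate 2 or mutant replicate 1 at 20 °C or mutant replicate 2 or 3 at 25 °C, at an FDR of 0.051 to 0.0706. *nspg-13* missed it in 10 of the 15 fits that left out a library, at an FDR of up to 0.125. Leaving out single libraries moved the count of members with an interaction between 2 and 7, and no subfamily sum passed. For *nspb*, the interaction of the sum was 0.52 ± 0.73 (FDR 0.694), an error wide enough to leave a difference of either direction undetected.

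Growth at 25 rather than 20 °C was compared within each strain in the same fit, and these comparisons share libraries with those between strains. In N2, 1 of 38 members was called higher at 25 °C and 6 lower, where 5.49% of all 14000 genes were called higher and 1.09% lower. The lower members were *nspc-5*, *nspc-16*, *nspc-17*, *nspc-18*, *nspg-7.2* and *nspg-8*. *nspg-8* fell by 1.68 ± 0.13 on the log2 scale (FDR 4.2e-08), from 22.01 to 27.0 CPM down to 6.81 to 8.87 CPM.

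*nspc-17* was at 2.45, 3.15, 3.38 and 3.94 CPM in N2 at 20 °C against 0.851 to 1.91 CPM at 25 °C (-1.33 ± 0.28, FDR 0.000928). *nspc-16* (-1.03 ± 0.26, FDR 0.00367) and *nspc-18* (-1.43 ± 0.39, FDR 0.00631) moved the same way, and in all 3 genes the temperatures did not overlap, where 20.2% of all genes were lower at 25 °C in every library. The fold of *nspc-16* fell under the threshold without N2 replicate 3 at 20 °C (-0.79) or N2 replicate 3 or 4 at 25 °C (-0.90 and -0.99). By the FDR threshold alone, 9 of 17 *nspc* genes were lower and 0 higher in N2 at 25 °C, where 22.1% of all genes were lower. In the edgeR test 3 *nspc* genes had log2 fold changes above 0, and these were not past the threshold.

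The *nspg* family went the other way in N2. By the FDR threshold alone 9 of the 11 tested *nspg* genes were higher at 25 °C, where 23% of all genes were, and *nspg-7.2* and *nspg-8* were lower. *nspg-13* was at 170 to 207 CPM in N2 at 25 °C, well above its 99.9 to 118 CPM at 20 °C (0.76 ± 0.08, FDR 2.06e-06). *nspg-10* was at 204 to 241 CPM against 145 to 159 CPM (0.53 ± 0.06, FDR 2.65e-06), and *nspg-7.1* at 312 to 343 CPM against 184 to 254 CPM (0.55 ± 0.15, FDR 0.00813). The *nspg* sum rose by 0.56 ± 0.07 in N2 (FDR 3.54e-06) and by 0.37 ± 0.07 in mutants (FDR 0.000821). The only *nspg* gene called higher at 25 °C in N2 was *nspg-1*, at 0.505, 0.723, 0.906 and 1.11 CPM at 20 °C and 1.09, 1.82, 1.91 and 2.02 CPM at 25 °C (1.07 ± 0.38, FDR 0.0264). The call of *nspg-1* was lost without N2 replicate 1 or 4 at 20 °C or N2 replicate 2, 3 or 4 at 25 °C (FDR 0.0514 to 0.0799), and the gene overlaps *anp-1* and T07F10.3 in exons.

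In mutants, 0 of 38 members were called higher at 25 °C and 3 lower, where 2.6% and 0.571% of all genes were. By edgeR, 5 *nspg* genes and *nspc-15* were higher at 25 °C by the FDR threshold alone, where 13.6% of all genes were. The lower members were *nspc-5*, *nspe-1* and *nspg-7.2*. *nspg-7.2* was at 1.36 to 2.98 CPM in mutants at 20 °C and at 0.231, 0.252 and 0.786 CPM at 25 °C (-2.41 ± 0.47, FDR 0.00122). In N2 it was at 0.563 to 1.57 CPM at 20 °C and at 0.122, 0.155, 0.261 and 0.363 CPM at 25 °C (-2.06 ± 0.53, FDR 0.00459), so it was lower at 25 °C in both strains.

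*nspc-5* was at 0.988, 3.10, 3.30 and 5.27 CPM in N2 at 20 °C and at 0.699, 1.18, 1.65 and 1.82 CPM at 25 °C (-1.21 ± 0.41, FDR 0.0244), and the temperatures overlapped. In mutants it was at 2.36, 2.50, 3.38 and 3.75 CPM at 20 °C and at 0.419, 0.540 and 1.31 CPM at 25 °C (-1.97 ± 0.50, FDR 0.00833). The N2 call was lost without N2 replicate 3 at 20 °C (FDR 0.103) or N2 replicate 2 or 4 at 25 °C (0.0628 and 0.0752), and the mutant call without mutant replicate 2 at 25 °C (0.0515). The fall of *nspe-1* in mutants (-3.23 ± 0.89, FDR 0.0138) ends at 2 counts in each library. In this fit *nspe-1* passed the filter on low counts only through the mutant libraries at 20 °C, where it is high, which partly sets its call. Without mutant replicate 2 or 3 at 25 °C its FDR was 0.0616 and 0.0546, and the *nspe* sum in mutants (-1.33 ± 0.43, FDR 0.0309, called where 3.16% of all rows were) had an FDR of 0.132 without mutant replicate 2 at 20 °C and of 0.0769 and 0.129 without mutant replicate 2 and 3 at 25 °C.

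**Figure D4:**
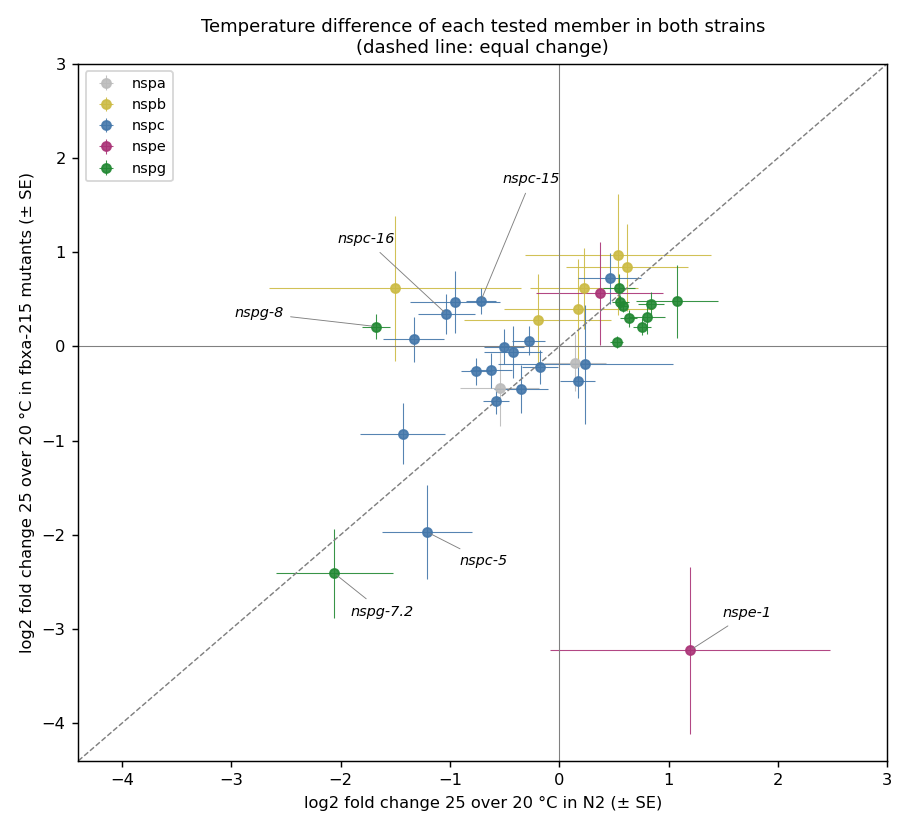
Log2 fold change of 25 over 20 °C in N2 (horizontal axis) and in *fbxa-215* mutants (vertical axis) for the 38 tested members, with SE bars and the line of equal change dashed. *nspg-8* lies far left of the line (-1.68 in N2, 0.21 in mutants), as do *nspc-15* and *nspc-16*, while *nspg-7.2* and *nspc-5* lie low in both strains.

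Markers of other tissues differed between the strains as well. Among all 13510 genes tested at 25 °C, 942 were higher in mutants by the FDR threshold alone, and 1634 passed it in either direction. Among the 13127 tested at 20 °C, 1012 were higher and 1769 passed in either direction. At 25 °C the summed CPM of 5 muscle markers was 4572 to 6025 in N2 and 7079 to 7654 in mutants, with 4 of 5 higher by the FDR threshold alone. The 6 pharynx and gland markers were at 266 to 411 CPM in N2 and 566 to 641.5 CPM in mutants, with 4 of 5 tested higher. The 5 nervous system markers were at 242 to 253 CPM in N2 and 271 to 323 CPM in mutants, with 3 of 5 higher. The sperm list of 61 genes went the other way at 25 °C, at 4692 to 5439 CPM in N2 and 3649 to 4560 CPM in mutants, with 9 of 53 tested lower by the FDR threshold alone. Within it the *nspd* genes had a median log2 fold change of 0.65 at 20 °C and -1.10 at 25 °C, with 0 of 9 called. At 20 °C, 11 of 13 oocyte and eggshell markers were lower in mutants by the FDR threshold alone, as were 4 of 10 intestine markers, with 1 higher; the intestine list's summed CPM was 83880 to 102200 in N2 and 67980 to 83030 in mutants. The part of these lists in the results for *nspb*, *nspc* and *nspg-8* was not tested.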

How the data were processed

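The 15 libraries hold poly-A RNA of young adults (paired reads, no strand information). The authors trimmed reads with Trimmomatic (version 0.39) and quantified transcripts of WBcel235 with Salmon (version 1.5.1). They deposited the estimated counts per gene, not normalized, and these were rounded. The authors' DESeq2 tables also hold a mean normalized signal, a log2 fold change, a p-value, an adjusted p-value and log2 expression values, of which only the gene symbols were used. Columns without a sample numbered 0.

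edgeR (version 4.0.16, R 4.3.3) was run on all genes: TMM, filterByExpr (minimum count 10, minimum total 15), robust quasi-likelihood F-test, Benjamini-Hochberg FDR. A call needed an FDR under 0.05 together with a log2 fold change beyond 1 in size, and an interaction only the FDR. Strains were compared within a temperature. The interaction and the temperature contrasts came from 1 fit over the 15 libraries. In further fits the summed counts of each subfamily replaced its members. The standard error is the log2 fold change over the square root of F, an approximation. CPM use TMM library sizes. The tests were first run on simulated data. Cluster limits are gaps above 100 kb.

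Alternatives were other size factors, other filters, DESeq2 (version 1.42.0), a replicate block, unrounded values, 1 fit over all libraries, FDR alone, and each library left out. Values are given per library for members called in any comparison and for the most abundant member of each subfamily. Where a comparison called more than 12, they are given for the 8 most abundant and the 4 with the largest fold changes. The members, lists and clusters were chosen with earlier results of these data known. Positions were read from Ensembl's WBcel235 gene models, where 21714 of 21882 identifiers matched. Protein, promoter and genome sequences were not analysed here. No 2 libraries of a group differed by as little as sampling noise (chi-square per degree of freedom of 4.03 or more). In mutants at 20 °C, replicate 4, the deepest library, was at 22.55 to 29.64 against the others. Those others were at 4.03 to 8.34 among themselves. In N2 at 20 °C the value was 5.25 for replicates 1 and 4, 5.98 for replicates 2 and 3, and 14.67 to 19.37 for the other pairs.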

Additional observations from a re-analysis of the deposited data

Results flagged for a closer look

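The test of genotype by temperature singled out 5 members, given above with their libraries. The strain difference was larger at 25 °C for *nspg-8* (1.89 on the log2 scale), *nspc-16* (1.38) and *nspc-15* (1.20), and smaller or opposite at 25 °C for *nspg-10* (-0.48) and *nspg-13* (-0.55).

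In 81 groups of 4 libraries, Dixon's test at the 95% level set 8 libraries apart from the rest of their group. Chance gives about 1 in 20 groups only for independent, normally distributed values. The groups include members beside their own sums. A group with all but its highest library at 0, as for *nspe-1* in N2 at 20 °C, is always set apart. The rate of 1 in 20 is therefore only a rough guide. In N2 at 20 °C, replicate 4 was the highest library for *nspb-12* (1.85 CPM) and *nspe-1* (0.322 CPM). In N2 at 25 °C, replicate 2 was the highest for *nspc-14* (14.2 CPM) and *nspc-18* (0.726 CPM), replicate 3 was the lowest for *nspa-4* (1.57 CPM), and replicate 4 was the lowest for the *nspe* sum (0.388 CPM). In mutants at 20 °C, replicate 2 was the highest for *nspe-1* (3.78 CPM) and replicate 4, the deepest library, for *nspg-7.1* (323 CPM).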

How the results depend on the processing

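No result turned its direction under any alternative. Between the strains at 20 °C, 4 members were called, against 2 with at least 10 counts in every library, 1 with the replicate number as a block, 7 with DESeq2, 7 in 1 fit over the 15 libraries, 16 by FDR alone, and 0 to 7 with each library left out. At 25 °C, 14 were called, against 8 with at least 10 counts in every library and 12 to 13 with each library left out. That stricter filter also gave 3 members for temperature in N2 and 0 in mutants, in place of 7 and 3, and 1 in place of 3 called sums, since it tests fewer members. The interaction had 5 members, against 2 with the block and 2 to 7 with each library left out. With each library left out, 5 to 7 members were called for temperature in N2 and 1 to 4 in mutants, and 1 to 3 sums.

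Same-numbered libraries of the strains did not deviate together (correlations of 0.137, -0.255, -0.06 and -0.126 at 20 °C and -0.124, -0.091 and -0.067 at 25 °C). Differently numbered pairs were at -0.255 to 0.321 at 20 °C and at -0.038 to 0.167 at 25 °C. The numbers therefore showed no sign of pairing, though so few libraries cannot exclude it. With the block, *nspb-2*, *nspb-8* and *nspc-18* missed the FDR at 25 °C (0.125, 0.0511 and 0.132), as did the *nspc* sum (0.0533). Depth limits the *nspb*, *nspe* and *nspa* genes, many of which lie near the level of 3 counts.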

Other observations

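The families differed in which marker list shared their highest library within a group. For 60 pairs of a subfamily sum and a marker or nsp list, the highest library was the same in all 4 groups for 3 pairs: *nspb* with the last larval moult list, and *nspa* with the sperm list and with the *nspd* genes that are part of it. It was the same in 3 groups for 5 pairs, among them *nspc* with the sperm, *nspd* and *nsph* lists. In mutants at 20 °C the *nspd* sum was 103 CPM in replicate 4 and 404 to 426 CPM in the other 3 libraries, and replicate 4 also had the lowest *nspc* sum (206 CPM) and the highest *nspb* sum (36.2 CPM). These pairs were picked after their values were seen and carry no test. The 3 *nspf* genes had 0 counts in all 15 libraries. Of the 8 *nsph* genes 7 were tested, and none was called by edgeR in any comparison. By the FDR threshold alone, 1 was higher in mutants at 20 °C, where 7.71% of all genes were. At 25 °C 2 were lower in mutants, where 1634 of all 13510 tested genes passed in either direction. At 25 against 20 °C, 5 were lower in mutants by that threshold. The share of all genes lower there was not computed, so this count cannot be judged. In N2, 2 were higher and 1 lower at 25 °C, where 23% and 22.1% of all genes were.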
